A study of Mus musculus with 63 samples.

Results

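The 9 genes described here, Atf4, Ddit3, Trib3, Nupr1, Asns, Psat1, Slc38a2, Slc3a2 and Slc7a5, belong to the response of cells to amino acid shortage and to stress in the endoplasmic reticulum. They were taken by symbol from the platform's gene table, which gave 15 probes for 9 genes, of 28049 probes and 14541 named genes on the arrays. The genes were chosen with earlier results of these data known. Shares of called member probes set beside all probes below are therefore descriptive and no test of the set. Atf4 had 3 probes, Asns, Psat1, Slc38a2 and Slc3a2 had 2 each, and the remaining 4 genes had 1. All 15 probes held a value in every sample. Keratinocytes from the skin of newborn CD-1 mice with a knockout (KO) or wild type (WT) epidermal growth factor receptor, EGFR, were either transduced with the v-rasHa oncogene (ras) or mock treated. The labels give 4 days of culture for the ras groups and for mock groups with an inhibitor, and no duration for WT mock and KO mock without one. Virus came as supernatant of Psi-2 producer cells. In 9 of the 13 groups AG1478, PD153035 or erlotinib, each an inhibitor of the EGFR kinase, was then added at 1 µM for 2 h. The samples numbered 6 for KO ras with AG1478, 4 for KO ras with erlotinib, 5 for KO ras with PD153035, 5 for KO ras and 3 for KO mock. Among WT cells there were 5 samples each of ras with AG1478, ras with erlotinib, ras with PD153035, ras alone and mock with each inhibitor, and 4 of mock. KO mock cells with an inhibitor were not analysed here. Each array set the RNA of 1 sample against Universal Mouse Reference RNA, a pool from 11 mouse cell lines, so that a level is a log ratio of keratinocyte sample over that pool.

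When a cell lacks an amino acid or its endoplasmic reticulum is overloaded, kinases phosphorylate the translation factor eIF2, general protein synthesis slows, and the mRNA of the transcription factor ATF4 is translated more. ATF4, with partners of the C/EBP family, then binds short composite motifs and raises the transcription of genes that make or import amino acids. ATF4 is controlled to a large extent at translation, so the level of its mRNA is not a measure of its protein. Epidermal keratinocytes use EGFR signalling for growth, and ras transduction is a standard first step in mouse models of skin tumours.

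The promoter windows of the members are given here because the motifs known for ATF4 can be looked for in them. RefSeq windows of build GRCm38.p6, reaching from 250 bases before to 50 after the start, were found for 8 of the 9 genes (Psat1 has 2, for 9 windows in all). The letters TGATGNAA, the core of the composite motif, were searched on both strands and stood in 3 of the 8 genes, against 3.97% of 32851 windows of the same length and 4.51% of all genes with a window. In Asns the match lay on the gene's own strand 23 bases before the start. In Trib3 it lay on the other strand, 14 bases after the start. In Nupr1 it lay on the other strand 110 bases before the start, inside a match to ATTGCATCA, a second form of the element, which overlaps it and occurred in 0.192% of windows. Below, those 3 windows and the window of Slc38a2, a member called in several of the comparisons that follow, run 5′ to 3′ on the gene's strand. Capitals mark the match. Asns lies at chr6:7693160-7693459, Nupr1 at chr7:126625421-126625720, Trib3 at chr2:152344011-152344310 and Slc38a2 at chr15:96699679-96699978, all on the minus strand.
Asns: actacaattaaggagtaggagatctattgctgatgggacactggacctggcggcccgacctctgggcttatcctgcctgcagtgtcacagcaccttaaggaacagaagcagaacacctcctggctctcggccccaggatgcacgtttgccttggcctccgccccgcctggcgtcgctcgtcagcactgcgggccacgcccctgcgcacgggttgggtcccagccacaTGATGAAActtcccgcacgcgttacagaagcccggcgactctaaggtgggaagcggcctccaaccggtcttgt
Nupr1: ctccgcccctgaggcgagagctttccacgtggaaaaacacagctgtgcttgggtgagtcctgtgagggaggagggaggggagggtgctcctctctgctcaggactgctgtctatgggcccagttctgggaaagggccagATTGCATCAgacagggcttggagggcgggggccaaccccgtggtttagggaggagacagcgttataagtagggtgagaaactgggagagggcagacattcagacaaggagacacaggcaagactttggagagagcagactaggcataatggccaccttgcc
Trib3: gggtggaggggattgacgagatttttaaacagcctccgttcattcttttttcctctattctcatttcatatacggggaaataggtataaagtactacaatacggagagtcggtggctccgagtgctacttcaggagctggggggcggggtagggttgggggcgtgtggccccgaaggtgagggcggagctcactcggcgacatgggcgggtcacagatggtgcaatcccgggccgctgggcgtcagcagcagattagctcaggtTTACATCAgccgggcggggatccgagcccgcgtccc
Slc38a2: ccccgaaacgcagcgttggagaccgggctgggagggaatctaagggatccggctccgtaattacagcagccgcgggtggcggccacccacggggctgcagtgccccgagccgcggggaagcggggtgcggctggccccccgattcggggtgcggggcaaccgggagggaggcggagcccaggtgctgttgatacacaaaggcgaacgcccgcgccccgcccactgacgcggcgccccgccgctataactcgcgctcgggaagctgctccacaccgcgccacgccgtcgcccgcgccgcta
A match of letters is no evidence of binding, and the window of Slc38a2 held neither motif.

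Some facts of the series bear on every value below. The log base is taken to be 2, which the sources used here do not state. The sign of each array, read as keratinocyte sample over pool, was set by its correlation with the median array of forward dye order, a correlation that lay between 0.559 and 0.901 in size. On 2 arrays, replicates 3 and 4 of KO ras with AG1478, the sign went against the dye label. Experiment numbers in the labels fall into 8 runs, whose meaning is not given. Every WT mock group and WT ras lay in runs 1 and 2, KO mock in run 4, and KO ras in runs 3, 5 and 6. Erlotinib in ras cells of both genotypes lay in runs 5 and 6. WT ras with AG1478 lay in runs 7 and 8, and KO ras with AG1478 and both ras groups with PD153035 in run 8. Of 12 keratinocyte markers 11 were measured, and all 11 had a mean ratio above 0 in every group. The mean of the 7 melanocyte markers lay between 0.73 and 4.33, and those of fibroblast, leukocyte and endothelial markers stayed below 0 in every sample. The targeted gene, Egfr, had 2 probes whose medians were 2.03 and 0.42 in KO samples, against 2.26 and 1.05 in WT samples. Neither probe was called in a comparison of KO with WT, and whether they lie in the deleted part is not known. The design text calls the samples biological replicates, but nothing says that they came from separate cultures, so p-values measure the spread between these samples. In bulk RNA, fewer cells of a type and less RNA per cell cannot be told apart.

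KO and WT ras cells treated with PD153035 were compared to set the genotypes side by side under 1 inhibitor. Both probes of Slc3a2, 1 of 2 of Slc38a2, 1 of 2 of Asns and 1 of 3 of Atf4 were called higher in KO cells. All 10 arrays of this comparison lay in run 8. Of the 15 probes 5 passed the threshold of an adjusted p of 0.05 and all 5 were higher in KO cells, a share of 33.3%, against 1.38% of the 27934 probes tested (0.533% called higher). Because the genes were chosen with earlier results known, the part of that choice in the share was not tested. The median difference of the 15 probes was 0.87 on the log2 scale, against −0.01 over all probes.

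Slc38a2 encodes SNAT2, a sodium-coupled transporter of small neutral amino acids. Its probe 1 had log2 ratios of 3.18, 3.07, 2.96, 3.31 and 2.91 in KO ras cells with PD153035, against 1.41, 1.64, 1.03, 1.08 and 1.16 in WT ras cells with PD153035. The lowest KO sample lay well above the highest WT sample. The fitted log2 difference was 1.82 ± 0.28 (SE), with limma's adjusted p = 5.06e-05, and it stayed between 1.75 and 1.91 and called when any sample was left out. Probe 2 differed by 1.2 ± 0.4 (limma adjusted p = 0.129), and its samples overlapped.

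Slc3a2 encodes the heavy chain of the CD98 complex, which carries light chains such as Slc7a5 to the cell surface. Probe 1 gave log2 ratios of 0.96, 1.03, 1.37, 1.48 and 0.50 in KO cells with PD153035, against −0.13, 0.11, 0.05, −0.31 and −0.02 in WT cells with PD153035. Probe 2 gave 1.15, 0.81, 1.15, 0.94 and 0.62 in those KO cells, against 0.16, −0.17, −0.43, 0.33 and 0.03 in those WT cells. Both probes separated the genotypes without overlap, with fitted log2 differences of 1.13 ± 0.29 and 0.95 ± 0.25 (limma adjusted p = 0.0255 and 0.0386). Slc7a5, the light chain LAT1 that imports large neutral amino acids, differed by 0.50 ± 0.32 (limma adjusted p = 0.671), and its samples overlapped.

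Atf4 probe 1 had log2 ratios of 2.33, 2.29, 2.63, 2.19 and 2.01 in KO ras cells with PD153035, against 0.97, 1.20, 0.54, 0.73 and 1.57 in WT ras cells with PD153035. Every KO sample lay above every WT sample, and the fitted log2 difference was 1.29 ± 0.31 (limma adjusted p = 0.0161). The other probes of Atf4 gave 0.07 ± 0.42 and 0.87 ± 0.31 and were not called (limma adjusted p = 0.992 and 0.178). The 3 probes of Atf4 therefore do not give 1 answer for the gene.

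Asns, which makes asparagine from aspartate and glutamine, had log2 ratios of 1.77, 2.00, 1.87, 1.98 and 1.60 on probe 1 in KO cells with PD153035, against 0.86, 0.89, 0.61, 0.90 and 1.14 in WT cells with PD153035. On probe 2 it had 2.21, 1.75, 1.89, 1.64 and 1.74 in those KO cells, against 0.61, 1.31, 0.73, 0.89 and 0.54 in those WT cells. Neither probe's groups overlapped. The fitted log2 differences were 0.96 ± 0.26 and 1.03 ± 0.37, of which the first was called (limma adjusted p = 0.0431 and 0.193). The other 4 genes did not pass: Ddit3 differed by 0.08 ± 0.36, Nupr1 by −0.30 ± 0.29, Trib3 by 0.40 ± 0.53, and the probes of Psat1 by −0.13 ± 0.48 and −0.19 ± 0.40 on the log2 scale. In all, the samples of the 2 groups did not overlap on 6 of the 15 probes, against 5.98% of all probes tested.

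The same 5 probes were called with run as a random block. With run as a fixed block 8 were, the second probes of Asns and Slc38a2 and probe 3 of Atf4 being added. Over all probes these blocks called 2.15% and 2.47%, against 1.38% without a block. All 10 samples lay in run 8, so a run block did not test the differences against run. Leaving out 1 sample left between 1 and 4 calls: 3 without WT replicates 1, 2 or 5, 2 without WT replicate 3 or KO replicates 1 or 2, and 1 without WT replicate 4 or KO replicate 3. Asns probe 1 was lost without any 1 of the 10 samples (log2 difference 0.91 to 1.04, adjusted p up to 0.12). Slc3a2 probe 1 was lost without 6 of the 10 samples (1.01 to 1.26 over the 10) and probe 2 without 7 of the 10 (0.86 to 1.02), and Atf4 probe 1 was lost without WT replicates 3 or 4 or KO replicate 3 (1.17, 1.21 and 1.2). Keratinocyte markers averaged 3.56 ± 0.78 in KO cells with PD153035 and 3.10 ± 1.00 in WT cells with PD153035 (SD, n = 5 each), and melanocyte markers 1.90 ± 0.36 and 1.62 ± 0.60 in the same order of genotypes. The ranges of both overlapped.

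**Figure D1:**
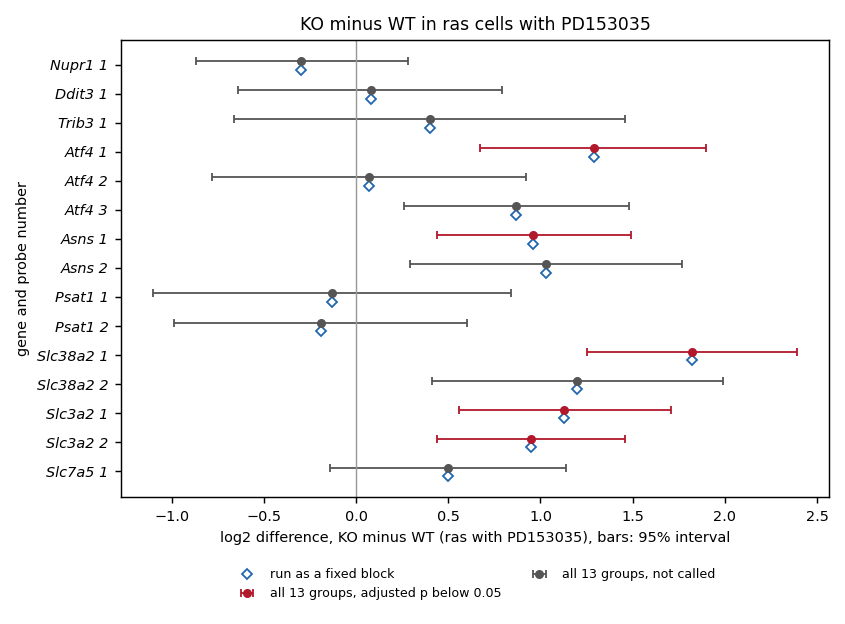
Fitted log2 differences of the 15 probes, KO minus WT, in ras cells with PD153035 (horizontal axis), with 95% intervals as bars. Open diamonds are the values with run as a fixed block, which did not move because both groups lay in run 8. The 5 called probes, of Atf4, Asns, Slc38a2 and Slc3a2, lie between 0.95 and 1.82.

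Against KO ras cells without inhibitor, PD153035 went with higher values on all 15 probes, with a median log2 difference of 0.66, against 0.01 over all probes. Of the 15 probes 3 were called, all higher in treated cells (20% of the probes, against 4.82% of the 27957 probes tested, of which 2.58% were higher). The treated samples are those of the KO against WT comparison above, so these are not independent results.

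Asns probe 2 had log2 ratios of 2.21, 1.75, 1.89, 1.64 and 1.74 in KO ras cells with PD153035, against 0.00, 0.27, −0.27, 1.88 and 0.32 in KO ras cells without it. A single untreated sample, replicate 4, the only reversed-dye array of its group, reached the treated level. On reversed-dye arrays Asns probe 2 read higher by 0.74, and the ratios listed are not adjusted for dye. The fitted log2 difference was 1.41 ± 0.37 (limma adjusted p = 0.0198). Slc3a2 probe 1 had −0.05, 0.04, −0.14, 0.58 and −0.64 in KO ras cells without inhibitor, set against the treated values given above, and differed by 1.11 ± 0.29, with an overlap of 1 sample in each group (limma adjusted p = 0.0179). On probe 2, where untreated KO ras cells had −0.11, −0.05, −0.33, 0.52 and −0.09, the groups did not overlap and differed by 0.95 ± 0.25 (limma adjusted p = 0.0218). Slc38a2 probe 1 showed no such difference from untreated KO ras cells, which had 2.38, 3.46, 3.02, 2.10 and 3.38.

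KO ras lay in runs 3, 5 and 6 and KO ras with PD153035 in run 8, so run and treatment cannot be told apart here. With run as a random block, or with only these 2 groups in the fit, no member probe was called. For the fit of 2 groups the share of all probes called is not given here, so its loss is not read as particular to the members. Under the random block Asns probe 2 had a limma adjusted p = 0.58 and the probes of Slc3a2 had 0.631 and 0.682. That block called none of the 27957 probes tested. Between 0 and 5 probes were called when 1 sample was left out: 1 without KO ras replicates 1, 2 or 3 or treated replicate 1, 0 without treated replicate 3, and 5 without KO ras replicate 4, the untreated reversed-dye sample with high Asns.

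AG1478 and erlotinib in KO ras cells gave no call among the 15 probes by limma, with 2 and 3 probes at an unadjusted p under 0.05. Of all probes 0.229% were called for AG1478 and 0.0543% for erlotinib, with 14.1% and 11.8% at an unadjusted p under 0.05. Array weights gave 1 and 3 calls, a setting that called 12.1% and 21.6% of all probes. Leaving out KO ras replicate 4 gave 1 call for AG1478. Slc38a2 probe 1 ranged from 1.69 to 2.66 with a median of 1.89 in the 6 KO ras samples with AG1478, against 2.38, 3.46, 3.02, 2.10 and 3.38 in KO ras cells. In KO ras cells with erlotinib it had 2.41, 1.90, 1.86 and 2.13. The fitted log2 differences were −0.86 ± 0.27 for AG1478 (limma adjusted p = 0.132) and −0.79 ± 0.30 for erlotinib (limma adjusted p = 0.278). All 3 inhibitor comparisons in KO ras cells share the 5 KO ras samples. Erlotinib shares runs 5 and 6 with 1 untreated sample each, where probe 1 differed by −1.32 (3 samples against 1) and 0.03 (1 against 1).

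In WT ras cells, Nupr1 was called higher and Slc38a2 probe 1 lower after 2 hours with each of the 3 inhibitors. Ddit3 was called higher with AG1478 and PD153035, in neither case without WT ras replicate 5 (0.95 and 1.12, limma adjusted p = 0.155 and 0.144), and was not called with erlotinib (0.96 ± 0.36, limma adjusted p = 0.12). Nupr1 encodes a small chromatin-associated protein induced by many stresses, and Ddit3 encodes CHOP, a transcription factor that ATF4 induces. AG1478 gave 6 called probes of 15, 2 higher and 4 lower (40%, against 1.96% of 27714 probes, 0.906% higher and 1.05% lower). Erlotinib gave 3, 1 higher and 2 lower (20%, against 3.41% of 27873, 2.29% higher and 1.13% lower), and PD153035 gave 3, 2 higher and 1 lower (20%, against 0.66% of 27893, 0.462% higher and 0.197% lower). All 3 comparisons use the same 5 WT ras samples, so the values stand side by side without being read as repeats of each other.

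Nupr1 had log2 ratios of 2.88, 2.03, 2.31, 1.71 and 2.65 with AG1478, 2.00, 2.33, 3.00, 2.49 and 2.79 with erlotinib, and 2.56, 2.2, 2.71, 1.72 and 3.04 with PD153035, against 1.35, 1.05, 1.68, 1.56 and 0.56 in WT ras cells without inhibitor. Every treated sample lay above every untreated one, if narrowly for AG1478 and PD153035. The fitted log2 differences were 1.08 ± 0.29 for AG1478, 1.28 ± 0.29 for erlotinib and 1.20 ± 0.29 for PD153035 (limma adjusted p = 0.0352, 0.00814 and 0.0281).

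Ddit3 had log2 ratios of 0.52, 0.49, 1.09, 0.02 and −0.02 with AG1478, −0.37, 0.65, −0.56, 0.10 and −0.18 with erlotinib, and 1.03, 0.26, 0.49, 0.82 and 0.33 with PD153035, against −0.72, −0.79, 0.32, −0.92 and −3.06 in WT ras cells. The groups overlapped through untreated replicate 3, and untreated replicate 5 lay far below the others. The fitted log2 differences were 1.45 ± 0.36 for AG1478 and 1.62 ± 0.36 for PD153035 (limma adjusted p = 0.0223 and 0.0159), and 0.96 ± 0.36 for erlotinib, which was not called (limma adjusted p = 0.12). Without WT ras replicate 5 they were 0.95 for AG1478 and 1.12 for PD153035, and neither was called (adjusted p = 0.155 and 0.144).

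Slc38a2 probe 1 had log2 ratios of 1.40, 1.23, 0.57, 1.18 and 0.94 with AG1478, 1.62, 1.97, 1.65, 1.20 and 1.40 with erlotinib, and 1.41, 1.64, 1.03, 1.08 and 1.16 with PD153035, against 2.45, 2.63, 2.66, 2.91 and 2.66 in WT ras cells. No treated sample reached the lowest untreated one. The fitted log2 differences were −1.60 ± 0.28, −1.09 ± 0.28 and −1.40 ± 0.28 for AG1478, erlotinib and PD153035 (limma adjusted p = 0.00128, 0.0223 and 0.00722). Probe 2 fell by 1.72 with AG1478 and by 1.64 with erlotinib (limma adjusted p = 0.0145 and 0.014), and differed by −0.96 ± 0.40 with PD153035 without being called (limma adjusted p = 0.286).

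With AG1478, Asns probe 2 and Atf4 probe 3 were also lower. Asns probe 2 had log2 ratios of 0.05, −0.94, 0.15, −0.70 and −1.17 with AG1478, against 0.81, 0.91, −0.05, 1.11 and 1.60 in WT ras cells, a fitted difference of −1.40 ± 0.37 (limma adjusted p = 0.0342). Atf4 probe 3 had 0.52, 0.18, 0.47, 0.79 and −0.20 with AG1478, against 1.06, 2.03, 0.63, 2.04 and 1.74 in WT ras cells, a fitted difference of −1.15 ± 0.31 (limma adjusted p = 0.0346). In both, untreated replicate 3 lay within the treated range. Asns probe 1 differed by 0.11 ± 0.26, so its 2 probes gave different answers.

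WT ras lay in runs 1 and 2 and the treated WT ras groups in runs 5 to 8, so run and treatment cannot be told apart in these comparisons. None of the 12 calls held with run as a random block. The limma adjusted p ran from 0.152 for Nupr1 under erlotinib to 0.701 for Slc38a2 probe 1 under PD153035. All 12 differences kept their sign, at sizes from 1.04 to 1.68. Of all probes that block called 1, 26 and 1 for AG1478, erlotinib and PD153035, against 542, 951 and 184 without it. A fit with only the 2 groups compared also called none of the 12. The share of all probes that fit called is not given here, so this loss is not read as particular to the members. Leaving out 1 sample gave between 2 and 6 calls for AG1478, with 2 without WT ras replicate 5 or treated replicate 2 and 3 without WT ras replicates 1 or 2 or treated replicates 1 or 5. It gave between 1 and 5 for erlotinib, with 5 without WT ras replicate 3 and 1 without treated replicate 3, and between 1 and 3 for PD153035, with 1 without WT ras replicate 5 or treated replicate 1. Slc38a2 probe 1 under AG1478 and PD153035, and Nupr1 under erlotinib, were called without any single sample.

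**Figure D2:**
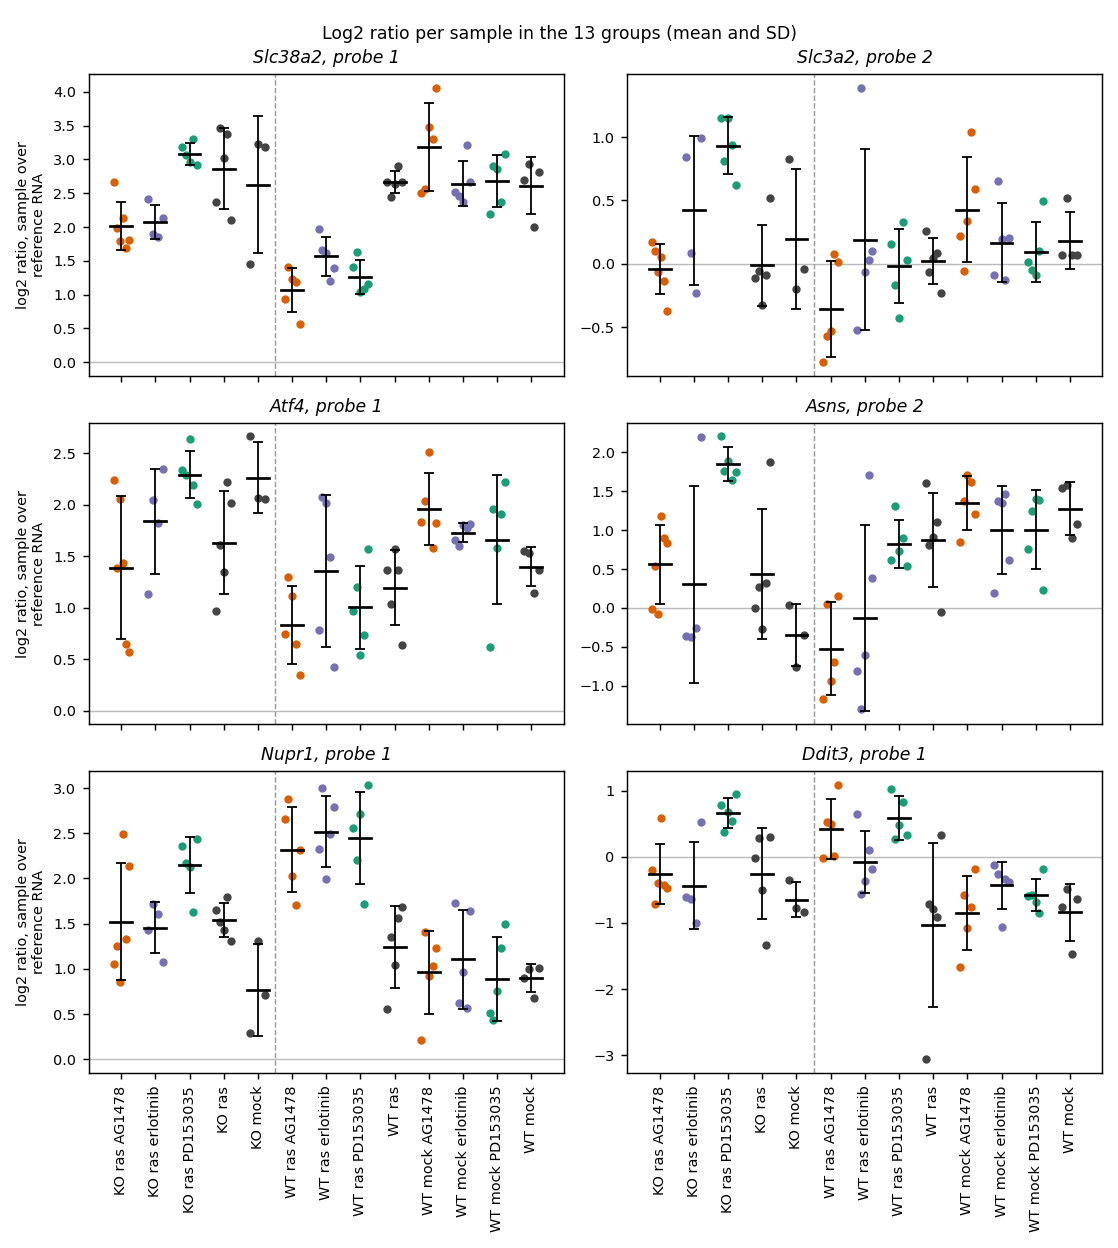
Log2 ratio of sample over reference RNA (vertical axes) for each sample of the 13 groups. Shown are Slc38a2 probe 1, Slc3a2 probe 2, Atf4 probe 1, Asns probe 2, and the single probes of Nupr1 and Ddit3. Black bars are means with SD. With the signs used here Slc38a2 probe 1 is lowest in the 3 inhibitor-treated WT ras groups. But with signs from the dye labels KO ras cells with AG1478 lie below WT ras cells with AG1478 (a difference of −0.34). On Slc38a2 probe 2, not shown, KO ras cells with AG1478 (mean 0.64) lie below WT ras cells with PD153035 (0.84). On the probes shown, Nupr1 is highest in the inhibitor-treated WT ras groups. The mean of KO ras cells with PD153035 is the highest for Slc3a2, Atf4 and Asns, though KO mock is close for Atf4 (2.26 against 2.29). Atf4 probes 2 and 3, not shown, are highest in WT ras with erlotinib and in WT mock with AG1478.

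The WT mock cells give the inhibitors' values without ras. None of the 15 probes was called by limma for AG1478, erlotinib or PD153035 there, and none had an unadjusted p under 0.05. Array weights gave no call among the 15 either, and called 0.101%, 0.0358% and 1.25% of all probes. Of the 27812 to 27910 probes tested none was called in any of the 3 comparisons (0.0%), with 6.51%, 3.18% and 3.42% at an unadjusted p under 0.05. Slc38a2 probe 1 differed by 0.57 ± 0.30, 0.04 ± 0.30 and 0.07 ± 0.30 with AG1478, erlotinib and PD153035. Nupr1 differed by 0.09 ± 0.30, 0.23 ± 0.30 and 0.01 ± 0.30. The 95% intervals for Nupr1 reached from −0.52 to 0.70, −0.38 to 0.84 and −0.60 to 0.62, so that log2 changes above 0.84 lie outside all 3.

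Under an inhibitor, ras cells could be compared with mock cells that had the same treatment. WT ras cells with AG1478 differed from WT mock cells with AG1478 on 7 of 15 probes, 2 higher and 5 lower (46.7%, against 5.18% of 27666 probes, 2.89% higher and 2.29% lower). With erlotinib 4 probes were called, 1 higher and 3 lower (26.7%, against 5.28% of 27933, 4.03% higher and 1.25% lower), and with PD153035 2, 1 higher and 1 lower (13.3%, against 1.19% of 27932, 0.92% higher and 0.269% lower). The treated ras samples are those of the WT ras comparisons above. Nupr1 was higher in ras cells and Slc38a2 probe 1 lower under each inhibitor.

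Nupr1 had log2 ratios of 0.21, 1.41, 0.92, 1.03 and 1.23 in WT mock cells with AG1478, below every WT ras sample with AG1478 given above. Its fitted log2 differences, ras minus mock, were 1.35 ± 0.29 under AG1478, 1.41 ± 0.29 under erlotinib and 1.56 ± 0.29 under PD153035 (limma adjusted p = 0.00233, 0.00126 and 0.000564), with no overlap in any of them. Slc38a2 probe 1 had 2.51, 2.56, 3.49, 3.30 and 4.06 in WT mock cells with AG1478, and its differences were −2.12 ± 0.28, −1.07 ± 0.28 and −1.42 ± 0.28 under AG1478, erlotinib and PD153035 (limma adjusted p = 1.06e-06, 0.016 and 0.00198). These groups did not overlap either.

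Under AG1478, Asns probe 2 fell by 1.87 and Atf4 probes 1 and 3 fell by 1.13 and 1.64 in ras cells, while Ddit3 was higher by 1.27 (limma adjusted p = 0.000951, 0.0213, 0.00042 and 0.0251). Atf4 probe 3 had 1.27, 1.83, 2.58, 2.04 and 2.26 in WT mock cells with AG1478, above every ras sample. Slc38a2 probe 2 fell by 1.59 under AG1478 and by 1.69 under erlotinib, and Atf4 probe 3 fell by 1.10 under erlotinib (limma adjusted p = 0.0108, 0.00577 and 0.0235). The groups of each comparison lay in different runs. With run as a random block 3 calls held under AG1478 (Slc38a2 probe 1, Asns probe 2 and Atf4 probe 3, limma adjusted p = 0.00147, 0.0253 and 0.0192). Nupr1 alone held under erlotinib and PD153035 (0.0458 and 0.0381). Of all probes that block called 0.524%, 0.795% and 0.226% under AG1478, erlotinib and PD153035, against 5.18%, 5.28% and 1.19% without it. With only the groups compared in the fit, 2, 1 and 1 member probes were called. The share of all probes that fit called is not given here, so the loss is not read as particular to the members. Without mock replicate 3 under AG1478, 4 probes were called rather than 7, Atf4 probe 1 (−0.99), Ddit3 (1.22) and Slc38a2 probe 2 (−1.34) being lost.

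The remaining losses were of single calls in these inhibitor comparisons. Under AG1478 the call of Ddit3 was also lost without mock replicate 1 or ras replicates 1, 2 or 3 (1.08, 1.24, 1.25 and 1.10), and that of Atf4 probe 1 without ras replicate 3 (−1.0). Under erlotinib that of Atf4 probe 3 was lost without mock replicates 2 or 3 or ras replicates 1, 2 or 3 (−0.93 to −1.05), and that of Slc38a2 probe 1 without mock replicate 4 (−0.90). In WT ras cells against untreated cells, Nupr1 under AG1478, Asns probe 2 and Atf4 probe 3 were each lost without 6 of the 10 samples (adjusted p up to 0.148, 0.14 and 0.102), and Nupr1 under PD153035 without 5 of the 10 (adjusted p up to 0.148). Slc38a2 probe 2 was lost without WT ras replicate 1 under AG1478 (−1.54) and without treated replicate 3 under erlotinib (−1.57), and probe 1 under erlotinib without WT ras replicates 4 or 5 or treated replicate 3 (−1.01, −1.10 and −1.11). Ddit3 was lost without treated replicates 1 or 2 under AG1478 (1.42 and 1.43) and treated replicate 1 under PD153035 (1.5).

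The 3 inhibitors were given at the same dose and for the same time, which allows 9 direct comparisons between them. In WT mock cells no probe was called by limma for any pair, with 1 of the 15 at an unadjusted p under 0.05 for AG1478 against PD153035, and over all probes 0.0% was called, with 3.14% (AG1478 against erlotinib), 3.08% (AG1478 against PD153035) and 1.16% (erlotinib against PD153035) at an unadjusted p under 0.05. In WT ras cells AG1478 and erlotinib differed on Atf4 probe 2, which had −2.54, −0.98, −1.95, 0.43 and −1.19 with AG1478, against −0.16, 2.29, −0.68, 1.13 and 0.66 with erlotinib. The values spread widely and overlapped, and the fitted log2 difference was −1.90 ± 0.42 (limma adjusted p = 0.0145, 6.67% of the member probes, against 0.897% of all, 0.634% lower). AG1478 and PD153035 differed on Asns probe 2, which had 0.05, −0.94, 0.15, −0.70 and −1.17 with AG1478, against 0.61, 1.31, 0.73, 0.89 and 0.54 with PD153035. Here the groups did not overlap, and the log2 difference was −1.34 ± 0.37 (limma adjusted p = 0.05, at the threshold, 6.67%, against 1.31% of all, 0.713% lower). Within run 8, with 2 samples against 5, it was −1.09. With run as a random block neither was called (limma adjusted p = 0.619 for Atf4 probe 2 and 0.132 for Asns probe 2). Of all probes that block called 0.0% and 0.119% for these pairs. Without AG1478 replicate 1 the call of Atf4 probe 2 was lost (−1.60), and that of Asns probe 2 was lost without 8 of the 10 samples (−1.13 to −1.54 over the 10).

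For Nupr1 no pair of inhibitors was called in WT ras cells. The 95% interval of its log2 difference was −0.78 to 0.37 for AG1478 minus erlotinib, −0.70 to 0.45 for AG1478 minus PD153035 and −0.50 to 0.65 for erlotinib minus PD153035. For Slc38a2 probe 1 the intervals were −1.08 to 0.06, −0.77 to 0.37 and −0.26 to 0.88 for the same pairs. Differences of a size up to these bounds are not shut out by the data. Erlotinib and PD153035 gave no call among the 15 probes in WT ras cells (1 at an unadjusted p under 0.05, against 9.04% of all probes, of which 0.176% were called).

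In KO ras cells AG1478 and PD153035 could be compared within run 8. Of the 15 probes 14 had lower values with AG1478, with a median log2 difference of −0.93, against −0.02 over all probes. The 3 called probes were Slc3a2 probes 1 and 2 and Slc38a2 probe 1 (20%, against 0.759% of 27921, 0.226% lower). Slc38a2 probe 1 ranged from 1.69 to 2.66 with AG1478 (n = 6), against 2.91 to 3.31 with PD153035, without overlap, and differed by −1.08 ± 0.27 (limma adjusted p = 0.0363). The probes of Slc3a2 differed by −1.11 ± 0.27 and −0.97 ± 0.24, also without overlap (limma adjusted p = 0.0345 and 0.0361). On 7 of the 15 probes the groups did not overlap, against 3.04% of all probes.

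The 2 arrays of KO ras with AG1478 whose sign went against the dye label enter this result. Without both, none of these 3 was called, at −1.03 for Slc38a2 probe 1 and −0.93 and −0.92 for Slc3a2 (limma adjusted p = 0.106, 0.154 and 0.105). In this pair 7 probes were called with run as a random block, those 3 with both Asns probes, Slc38a2 probe 2 and Atf4 probe 3. Over all probes that block called 1.37%, against 0.759% without it. Both groups lay in run 8, so the block did not test the differences against run. The calls of Slc38a2 probe 1 and Slc3a2 probe 2 were each lost without 9 of the 11 samples, and that of Slc3a2 probe 1 without 7 of the 11, with adjusted p up to 0.105, 0.135 and 0.135.

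Erlotinib against PD153035 in KO ras cells gave 3 called probes, all lower with erlotinib (20%, against 5.82% of 27611, 2.35% lower). Slc38a2 probe 1 had 2.41, 1.90, 1.86 and 2.13 with erlotinib, against 3.18, 3.07, 2.96, 3.31 and 2.91 with PD153035, and differed by −1.01 ± 0.30 without overlap (limma adjusted p = 0.0346). Asns probe 2 had −0.36, −0.37, −0.26 and 2.2 with erlotinib, so that replicate 4, a reversed-dye array, lay at the level of PD153035. The fitted log2 difference of this probe was −1.58 ± 0.39 (limma adjusted p = 0.0101). Atf4 probe 3 differed by −1.17 ± 0.32 (limma adjusted p = 0.0217). Melanocyte markers averaged 3.03 ± 0.18 with erlotinib (SD, n = 4) and 1.90 ± 0.36 with PD153035 (SD, n = 5) without overlap, and keratinocyte markers 4.71 ± 0.46 and 3.56 ± 0.78 with overlap, and their part in the result was not tested. The groups lay in different runs, and none of the 3 was called with run as a random block (limma adjusted p = 0.435, 0.416 and 0.541). Of all probes 0.0217% were called with that block. Slc38a2 probe 1 was lost without 6 of the 9 samples, Asns probe 2 without erlotinib replicates 2 or 3 (−1.41 and −1.45), and Atf4 probe 3 without erlotinib replicates 1 or 3 or PD153035 replicate 1 (−0.89, −1.15 and −1.05). AG1478 against erlotinib in KO ras cells gave no call, with 3 probes at an unadjusted p under 0.05, against 11.9% of all probes, of which 0.243% were called. Over all 9 pairs 8 member probes were called, and 25 with array weights, which called from 0.0% to 27.1% of all probes by pair. Without 1 sample the 8 became 3 without PD153035 replicate 1, 4 without PD153035 replicates 2 or 3, and 5 without AG1478 replicates 1, 2 or 3 or erlotinib replicate 3, all of KO ras cells.

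KO and WT ras cells with AG1478 differed on 1 probe of 15, Slc38a2 probe 1 (6.67%, against 2.23% of 27750, and 0.818% called higher). It ranged from 1.69 to 2.66 in the 6 KO samples, with a median of 1.89, against 1.40, 1.23, 0.57, 1.18 and 0.94 in the WT samples. The groups did not overlap, and the fitted log2 difference was 0.94 ± 0.27 (limma adjusted p = 0.0476). Within run 8 it was 1.13, with 6 samples against 2. The call was lost with run as a random block (adjusted p = 0.0852), without any 1 of the 11 samples (0.81 to 1.03), and without both arrays of disputed sign (0.99 ± 0.31, adjusted p = 0.0938). With sign and dye taken from the labels the value was −0.34 (adjusted p = 0.713).

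With erlotinib, KO and WT ras cells gave no call among the 15 probes by limma. Of the 15, 5 had an unadjusted p under 0.05, against 15.6% of 27617 probes, of which 0.985% were called. Array weights gave 1 call, a setting that called 9.25% of all probes. Nupr1 had 1.43, 1.72, 1.60 and 1.07 in KO cells with erlotinib, against 2.00, 2.33, 3.00, 2.49 and 2.79 in WT cells with erlotinib. The groups did not overlap, and the fitted log2 difference of −1.05 ± 0.30 had a limma adjusted p = 0.0668. With run as a random block it was called (−1.04 ± 0.29, adjusted p = 0.0435), and within runs 5 and 6 it was −0.86 and −1.57. A fixed block for run gave calls for Nupr1 (−1.04 ± 0.30, limma adjusted p = 0.0462) and Slc38a2 probe 2 (1.33 ± 0.37, limma adjusted p = 0.0365). Of all probes the random and fixed blocks called 2.28% and 2.84%. In the same samples keratinocyte markers averaged 4.71 ± 0.46 in KO (SD, n = 4) and 3.35 ± 0.42 in WT (SD, n = 5), and melanocyte markers 3.03 ± 0.18 in KO and 1.87 ± 0.55 in WT, without overlap in either list. Their part in the result was not tested.

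Without inhibitor, no probe of these genes passed the threshold for ras or for genotype. Ras against mock gave 0 of 15 in WT cells (1 at an unadjusted p under 0.05, against 6.69% of 27859 probes, of which 0.183% were called) and 0 of 15 in KO cells (2, against 6.8% of 28034, of which 0.539% were called). KO against WT gave 0 of 15 in mock cells (6, against 17.7% of 27913, of which 1.11% were called) and 0 of 15 in ras cells (2, against 16.8% of 27966, of which 1.93% were called). Array weights gave 4 calls in KO against WT mock cells, 1 in KO against WT ras cells and none for ras. Of all probes that setting called 18.3% and 7.48% for genotype, and 0.359% (WT) and 2.94% (KO) for ras. In WT cells the 95% intervals of the ras effect ran from −0.55 to 0.66 for Slc38a2 probe 1 and from −0.25 to 0.97 for Nupr1.

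The widest differences in mock cells were those of Psat1 and Asns, neither of them called. Psat1 encodes the aminotransferase of the serine synthesis pathway. Probe 1 had 1.23, 0.36 and 0.46 in KO mock cells, against 2.75, 2.73, 2.44 and 2.53 in WT mock cells, a fitted log2 difference of −1.92 ± 0.58 (limma adjusted p = 0.0774). Asns probe 2 had −0.75, 0.04 and −0.34 in KO mock cells, against 1.54, 1.58, 0.90 and 1.08 in WT mock cells, a difference of −1.53 ± 0.45 (limma adjusted p = 0.0664), while probe 1 differed by less than 0.1 in size. On 6 of the 15 probes the groups did not overlap, and 20.0% of all probes did not. KO mock lay wholly in run 4 and WT mock in runs 1 and 2, so run and genotype cannot be told apart. Fibroblast markers averaged −0.89 ± 0.29 in KO mock cells (SD, n = 3) and −1.93 ± 0.20 in WT mock cells (SD, n = 4), without overlap, and their part was not tested.

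The test of whether KO and WT cells differed in their response gave no call for any of 4 effects. In each test the KO and WT samples without inhibitor shared no run, so run and genotype cannot be told apart in it. For the response of ras cells to PD153035, 13 of 15 probes had a larger value in KO, with a median of 0.66, against −0.03 over all probes, and 5 had an unadjusted p under 0.05, against 10.1% of all. Slc38a2 probe 1 differed in response by 1.62 ± 0.40 on the log2 scale (limma adjusted p = 0.0938), the nearest to the threshold of the 15, and 0.0933% of the 27854 probes were called. For AG1478, erlotinib and ras itself 7, 4 and 0 probes had an unadjusted p under 0.05, against 16.9%, 11.3% and 5.91% of all, with 0.874%, 0.0653% and 0.0108% of all probes called. Array weights gave 12 calls over the 4 tests. That setting called 0.811% of all probes for ras, 10.4% for AG1478, 6.6% for erlotinib and 8.18% for PD153035. Leaving out WT ras replicate 3, KO ras replicate 4 or KO ras replicate 5 gave 1, 2 and 2 calls. A called effect in WT cells and none in KO cells, as for Nupr1 under erlotinib, was therefore not shown to differ between genotypes (−1.35 ± 0.42, limma adjusted p = 0.22).

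**Figure D3:**
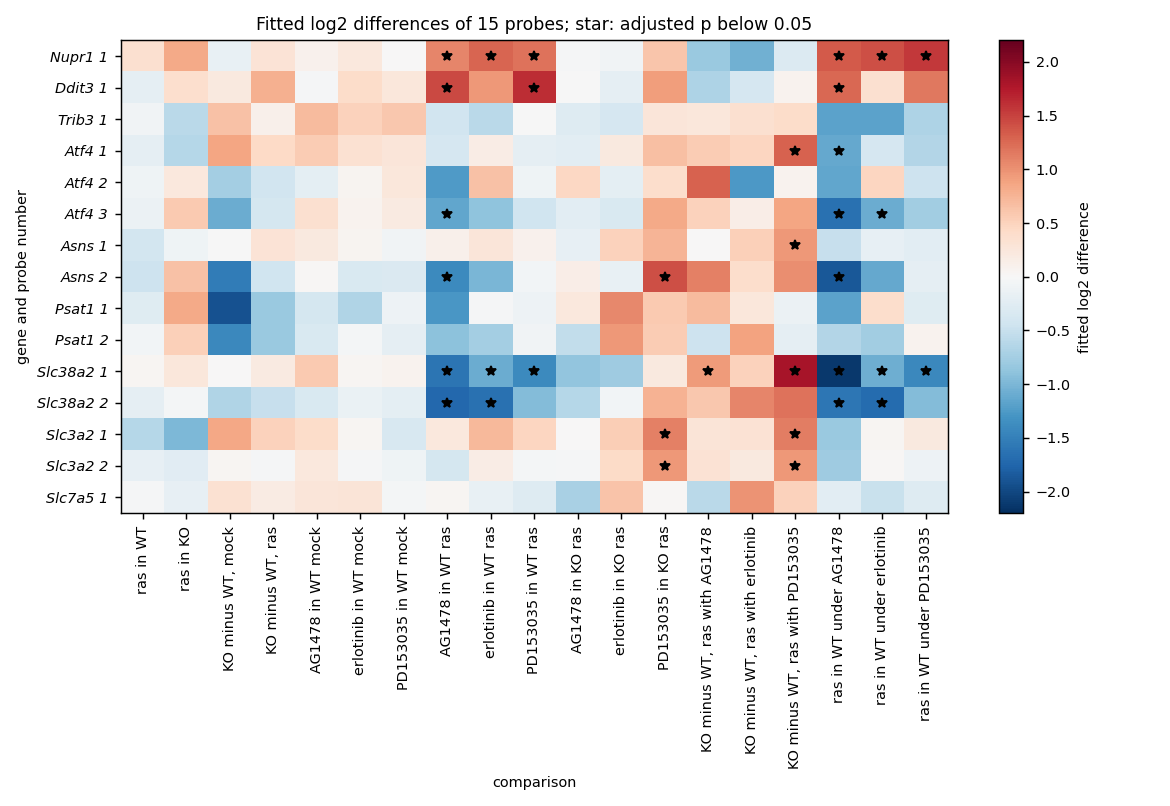
Fitted log2 differences of the 15 probes (rows) in the 19 comparisons of 2 groups (columns), in colour, with a star at an adjusted p below 0.05. The stars gather in the WT ras comparisons for Nupr1, Ddit3 and Slc38a2 and in the PD153035 columns of KO cells for Slc3a2.

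Psat1, Slc7a5 and Trib3 were not called in any of the 32 comparisons. Psat1 probe 1 had group means from 0.69 in KO mock cells to 2.61 in WT mock cells, with a pooled SD within groups of 0.78. Slc7a5 had group means from −0.33 in KO ras cells with AG1478 to 1.03 in KO ras cells with erlotinib, where the samples were 2.25, 0.11, 0.04 and 1.72. In AG1478 minus erlotinib in KO ras cells it differed by −1.34 ± 0.33 (limma adjusted p = 0.0523). Trib3, a pseudokinase that restrains ATF4 and CHOP, had the largest spread within groups, a pooled SD of 0.86. That spread came with single high samples: replicate 5 reached 3.41 in WT mock cells with AG1478 and 3.51 with PD153035, where the other 4 samples lay at or below 0.61.

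**Figure D4:**
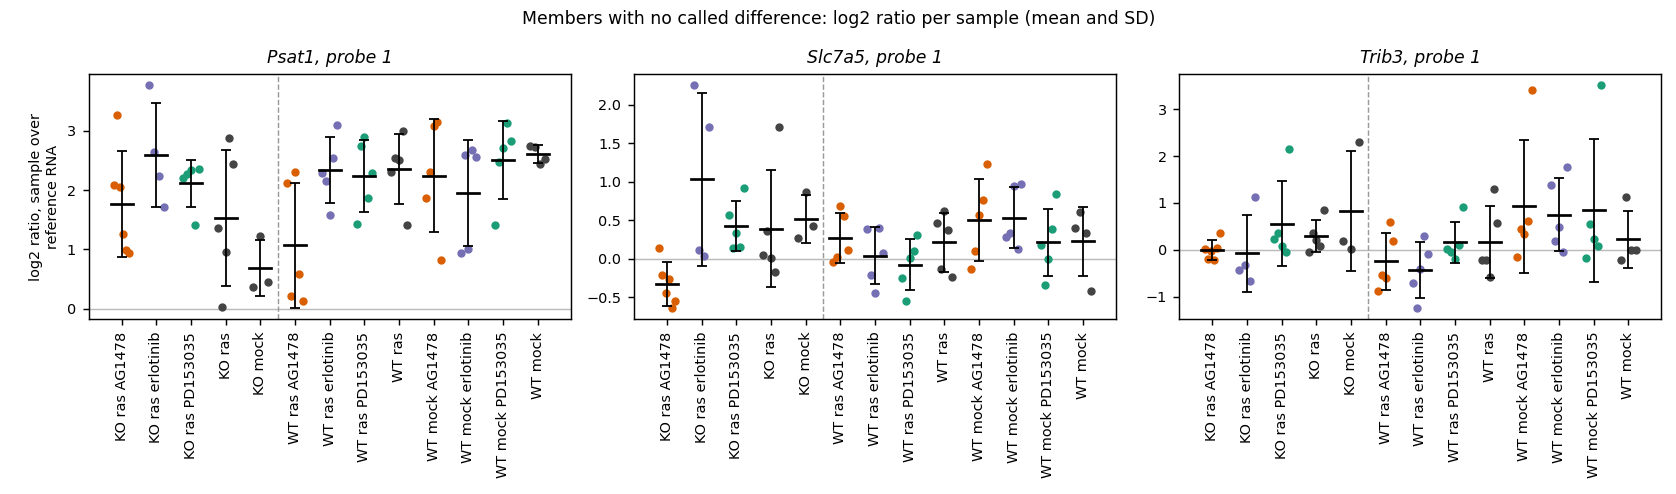
Log2 ratio of sample over reference RNA (vertical axes) per sample in the 13 groups for Psat1, Slc7a5 and Trib3, which had no called difference. Black bars are means with SD, and Trib3 shows single samples above 2 in WT mock cells with AG1478 and with PD153035, in KO mock and in KO ras with PD153035.

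In the order of its group means, Slc38a2 probe 1 ran from 1.06 ± 0.32 in WT ras cells with AG1478, 1.26 ± 0.25 with PD153035 and 1.57 ± 0.29 with erlotinib to 2.01 ± 0.36 in KO ras cells with AG1478 and 2.08 ± 0.25 with erlotinib, but with signs from the dye labels KO ras with AG1478 lay below WT ras with AG1478 (a difference of −0.34, limma adjusted p = 0.713). The 8 other groups lay between 2.61 and 3.18, and the SDs of neighbours in this order overlapped throughout them. Nupr1 was below 1.25 in WT ras and every mock group, between 1.45 and 2.15 in the KO ras groups, and between 2.32 and 2.52 in the inhibitor-treated WT ras groups.

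The probes of a gene did not always move together. Over the 13 group means the correlation between probes was 0.86 for Slc38a2, 0.81 for Slc3a2, 0.79 for Psat1 and 0.45 for Asns. For Atf4 it was 0.07 between probes 1 and 2, 0.36 between 1 and 3, and 0.51 between 2 and 3. On reversed-dye arrays Slc38a2 probe 2, Asns probe 2 and Atf4 probe 2 read higher by 0.85, 0.74 and 0.65, while the other probes moved by 0.44 or less in size. Among genes, Asns, Atf4 and Slc3a2 followed the mean of the 9 most closely over groups (r = 0.94, 0.81 and 0.80), and Ddit3 and Nupr1 did not (0.20 and −0.03). Ddit3 and Nupr1 went with each other (r = 0.85) and opposite to Slc38a2 (−0.52 and −0.69). These correlations describe 13 groups that share a reference RNA.

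In 6 lists, 61 other genes of the same pathways were collected, of which 51 were tested and read beside the members. In KO minus WT ras cells with PD153035, 2 were called higher and 1 lower, against 0.533% and 0.848% of all probes. The aminoacyl-tRNA synthetases and the tRNA exporter, which load amino acids on tRNA and are known ATF4 targets, had positive differences for all 11 tested genes, with a median of 0.76, against −0.01 over all probes. Of them Tars and Eprs, the threonyl and glutamyl-prolyl enzymes, were called, at 1.07 ± 0.26 and 1.05 ± 0.27 (limma adjusted p = 0.0164 and 0.024). With signs and dye term from the labels they were not called, at 1.07 ± 0.46 and 1.05 ± 0.35 (limma adjusted p = 0.431 and 0.197). Neither array of disputed sign belongs to these groups, and the differences did not move while the SEs grew. The list of amino acid synthesis had 7 of 8 positive with none called, and the ER chaperones 1 of 8 positive, with Hsp90b1, a chaperone of the endoplasmic reticulum, at −2.28 ± 0.33 (limma adjusted p = 1.42e-05). The transport list had 4 of 8 positive and none called. The list of stress transcription factors and feedback had 7 of 12 positive (median 0.29). That of eIF2 kinases and phosphatase had 2 of 4 (0.05), with none called in either. With erlotinib, KO minus WT ras cells had 10 of 11 synthetase and exporter genes positive (median 0.65). Without inhibitor 9 of 11 were positive (0.38), and with AG1478 8 of 11 (0.19). The synthesis list had 8 of 8 positive with erlotinib, 5 of 8 without inhibitor and 3 of 8 with AG1478.

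In the other comparisons at most 4 of the 51 genes were called. Those 4 were called higher in WT ras over WT mock cells under erlotinib, where 5.28% of all probes were called and 4.03% called higher. The count is therefore not read as a result about the lists, and the calls below are given as single genes. Hsp90b1 was lower in KO ras cells with PD153035 than in KO ras cells without it (−1.31 ± 0.33, limma adjusted p = 0.0166), a comparison in which run and treatment cannot be told apart. It was also lower in KO than in WT ras cells (−1.21 ± 0.33, limma adjusted p = 0.041). In KO ras cells it was higher with AG1478 and with erlotinib than with PD153035, by 1.56 ± 0.32 and 1.79 ± 0.35 (limma adjusted p = 0.0054 and 0.00118). Under erlotinib, Slc43a1, a transporter of branched-chain amino acids, and the chaperone genes Hspa5, Hsp90b1 and Dnajb9 were higher in WT ras than in WT mock cells, by 2.35, 1.18, 1.09 and 1.02 (limma adjusted p = 0.00105, 0.0455, 0.0401 and 0.024). The other probe of Dnajb9 gave 0.04.

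Slc43a1 was also lower in KO ras cells with PD153035 than without it (−1.75 ± 0.47, limma adjusted p = 0.0217). In WT ras cells it was higher with AG1478 and with erlotinib than with PD153035, by 1.74 ± 0.47 and 2.37 ± 0.47 (limma adjusted p = 0.0441 and 0.00671). With run as a fixed block the AG1478 difference was 0.19 ± 0.51 (limma adjusted p = 0.936). The erlotinib and PD153035 groups shared no run. Between KO and WT ras cells with AG1478, Slc43a1 differed by −1.74 ± 0.45 (limma adjusted p = 0.0231). That value was −0.46 with signs from the labels and −0.17 with run as a fixed block, neither called. Atf5, a transcription factor related to ATF4, was higher in KO than in WT ras cells by 1.41 ± 0.40 (limma adjusted p = 0.0457). Those groups shared no run, and keratinocyte markers averaged 4.31 ± 0.22 in KO ras and 3.61 ± 0.51 in WT ras cells (SD, n = 5 each) without overlap, a difference whose part in the result was not tested.

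Edem1 fell by 1.60 with AG1478 and Slc1a5, a glutamine transporter, was higher by 1.02 with erlotinib in WT ras cells (limma adjusted p = 0.0405 and 0.0445). The other probes of Slc1a5 gave 0.23 and 0.33. Cebpb, which encodes a C/EBP partner of ATF4, was higher with erlotinib than with PD153035 in KO ras cells (1.08 ± 0.30, limma adjusted p = 0.0232). The AG1478 effect differed between KO and WT ras cells for Sars, the seryl-tRNA synthetase, by −3.27 ± 0.77, for Atf5 by −2.2 ± 0.55 and for Edem1 by 2.26 ± 0.60 (limma adjusted p = 0.0307, 0.038 and 0.0499). The other probes of Sars gave −0.20 and −1.22. For these differences in effect the untreated KO ras and WT ras samples shared no run. With run as a random block, the calls in these comparisons that remained were Slc43a1 in WT ras over WT mock cells under erlotinib and Hsp90b1 in KO ras cells with AG1478 over PD153035 (limma adjusted p = 0.0326 and 0.000484). No other call of a list gene outside the comparison of KO with WT ras cells under PD153035 held with that block. List genes not called without the block were not read under it.

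The genes outside the 9 whose 13 group values were most like the members' mean, among 11271 genes, were Yars (r = 0.89), Egflam (0.859), Srsf3 (0.852), Olfr457 (0.851) and Gadd45a (0.832). Over the 62 samples the correlations were 0.641, 0.201, 0.547, 0.52 and 0.651.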

How the data were processed

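Total RNA of 62 samples in 13 groups was hybridised against a reference RNA on 63 2-colour arrays, per the labels. The authors deposited log ratios, read here as log2 of Cy3 over Cy5 (base and background correction not given in the sources used here), with array medians from −0.072 to 0.067. Of 28049 probes 20925 had 1 gene symbol, 159 several and 6965 none. Each array was signed by its correlation with the median forward array, and 2 WT mock arrays labelled repeat 1 were averaged. Limma 3.58.1 in R 4.3.3 was fitted to all 13 groups with a dye term, on probes with values in at least 60% of the samples of each group compared. Benjamini-Hochberg adjustment ran over all probes of each of 32 comparisons, with a threshold of 0.05. The code was tested on simulated data. The named genes were the 9 members, the called genes of the 6 pathway lists and the 5 genes most like the members' mean. Members and lists were chosen with earlier results of these data known. Same-numbered samples did not deviate together in every pair of any comparison. The number of arrays limits the precision: the 95% intervals of the members' log2 differences had a median half-width of 0.61 to 0.77 between 2 groups. The 16 alternatives included dye, sign, run and normalization choices.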

Additional observations from a re-analysis of the deposited data

Results flagged for a closer look

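Of 180 sets of 4 to 6 samples (a probe in a group), 19 held a sample far from the others by Dixon's test, where chance gives about 1 in 20. KO ras replicate 4, of run 6, was high on Asns probe 2 (1.88, against −0.27 to 0.32 in the others), Slc38a2 probe 2 (2.9, against 0.47 to 1.02) and Slc7a5 (1.71, against −0.18 to 0.36). KO ras with erlotinib replicate 4, also of run 6, was high on Asns probe 2 (2.2, against −0.37 to −0.26), and replicate 3 was low on Psat1 probe 2 (2.37, against 2.89 to 2.97). Each of these replicates 4 was the only reversed-dye array of its group, and the values are not adjusted for dye. On reversed-dye arrays Asns probe 2, Slc38a2 probe 2 and Slc7a5 read higher by 0.74, 0.85 and 0.28. The part of dye in these values was not tested.

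Trib3 stood out through replicate 5 in 4 groups: 2.16 in KO ras with PD153035, 0.91 in WT ras with PD153035, 3.41 in WT mock with AG1478 and 3.51 in WT mock with PD153035. Its value of 1.12 in WT mock replicate 2 was high too. In KO ras with PD153035, replicate 4 was low on Slc38a2 probe 2 (1.42) and Psat1 probe 1 (1.41).

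The other samples far from their group were of WT mock cells. With PD153035, replicate 1 was low on Asns probe 1 (−0.05) and Psat1 probe 2 (1.78) and high on Atf4 probe 2 (1.12). With erlotinib, Asns probe 1 was low in replicate 1 (0.64) and Ddit3 low in replicate 3 (−1.06). Without inhibitor, Slc3a2 probe 2 was high in replicate 2 (0.52) and Atf4 probe 3 low in replicate 5 (1.15).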

How the results depend on the processing

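Of the 42 called differences, all 42 stayed called with array weights, no filter, only complete probes or the repeat 1 arrays kept apart, and 41 with median centring or quantile normalization. With forward arrays only 28 stayed called, without the dye term 35, with probes averaged by gene 35, without both disputed arrays 37, with run as a random block 13, with only the groups compared 13, and with sign and dye by the labels 22. By the labels Slc38a2 probe 1 in KO minus WT ras with AG1478 changed sign (−0.34). The causes were not tested, beyond the fewer samples some of these settings hold.

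Counts of called member probes are given by comparison. The share of all probes is not given here for forward arrays, quantile normalization, probes averaged by gene or only the groups compared. Counts under those settings are therefore not read as particular to the members. Array weights also called more of all probes. For PD153035 in KO ras it was 29.3% against 4.82% without weights, and for KO minus WT with PD153035 12.5% against 1.38%. With array weights 5.83% of all probes were called for KO minus WT with AG1478, 5.78% for erlotinib in WT ras and 9.21% for ras under PD153035. By the labels 8.2% were called for AG1478 in KO ras, against 0.229%. For KO minus WT with AG1478 it was 6.09%, against 2.23%, and for the pairs 0.0% to 14.1%. In WT ras the labels gave 0.989%, 1.71% and 0.204% for AG1478, erlotinib and PD153035. They gave 0.859% for KO minus WT with PD153035, and 3.21% and 0.594% for ras under erlotinib and PD153035. For differences in response they gave 0.00718% to 2.0%. KO minus WT mock (0) gave 3 with forward arrays, 3 with quantile normalization, 4 with array weights, 2 with repeat 1 apart and 1 averaged by gene. KO minus WT ras (0) gave 1 with array weights. AG1478 in WT ras (6) gave 3 without the dye term, 2 by the labels, and 0 with only the groups compared or run as a random block. Erlotinib in WT ras (3) gave 5 with array weights, 1 by the labels and 0 under those 2 settings, and PD153035 in WT ras (3) gave 1 with forward arrays, 1 by the labels and 0 under them. AG1478 in KO ras (0) gave 1 with array weights and 2 by the labels, and erlotinib in KO ras (0) gave 3 with array weights. PD153035 in KO ras (3) gave 5 with forward arrays, 5 with quantile normalization, 10 with array weights and 0 under those 2 settings. KO minus WT with AG1478 (1) gave 3 with quantile normalization, 3 with array weights, 2 by the labels, and 0 averaged by gene, without the dye term, without both disputed arrays, with only the groups compared, and with run random or fixed. KO minus WT with erlotinib (0) gave 1 with array weights, 1 with run random and 2 with run fixed. KO minus WT with PD153035 (5) gave 1 with forward arrays, 8 with array weights, 8 with run fixed, 3 without the dye term, 3 averaged by gene and 3 by the labels. Ras under AG1478 (7) gave 2 with only the groups compared and 3 with run random. Ras under erlotinib (4) gave 1 and 1 under these, 2 by the labels and 2 averaged by gene, and under PD153035 (2) 1 and 1, 6 with array weights and 0 by the labels. Pairs of inhibitors (8) gave 13 with quantile normalization, 25 with array weights, 17 by the labels and 4 without both disputed arrays. Differences between genotypes in response (0) gave 2 with forward arrays, 12 with array weights, 1 averaged by gene and 1 by the labels.

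The replicate numbers did not pair the samples. With the replicate block KO minus WT with AG1478 gave 0, AG1478 in WT ras 6, KO minus WT with PD153035 4 and the pairs 7.

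Leaving out 1 sample gave 0 to 1 for AG1478 in KO ras, 2 to 6 for AG1478, 1 to 5 for erlotinib and 1 to 3 for PD153035 in WT ras, 0 to 5 for PD153035 in KO ras, 0 to 1 and 1 to 4 for KO minus WT with AG1478 and PD153035, 4 to 10, 3 to 5 and 2 to 2 for ras under AG1478, erlotinib and PD153035, 3 to 10 for the pairs and 0 to 2 for differences in response.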
